A study of Saccharomyces cerevisiae with 40 samples.

Results

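The cytosolic Hsp70 and Hsp40 chaperones of Saccharomyces cerevisiae were followed through the arsenite (AsIII) arrays of the series. The set held 10 genes chosen by name: the Hsp70 genes SSA1, SSA2, SSA3, SSA4, SSB1 and SSB2, the Hsp110 genes SSE1 and SSE2, and the Hsp40 (J protein) genes YDJ1 and SIS1. All 10 were measured among 5540 genes on spotted cDNA arrays, with 10 spots, and among 5598 genes on Agilent oligonucleotide arrays, with 19 probes. SSA3, SSA4 and SSE2 were grouped as inducible and the other 7 as constitutive, by their known behaviour in heat-shocked yeast and not by their values here.

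The 40 arrays each compared 2 RNA samples carrying different dyes, and every value below is a log2 ratio, in which 1 unit is a 2-fold change. On the 20 cDNA arrays, strain BY4741 (mating type a, with his3Δ, leu2Δ0, met15Δ0 and uraΔ0 as the methods spell them, and written BY474 in the cDNA labels) was exposed to 1 mM AsIII for 30 min in 2 culture pairs, or to 100 μM for 30 min, 2 h or 4 h in 1 culture pair each, and set against its untreated culture on 4 arrays per pair. On the 20 Agilent arrays the deletion strains yap1Δ, cad1Δ, rpn4Δ and arr1Δ (Yap1-null, Cad1-null, Rpn4-null and Arr1-null in the labels, each in BY4741) and their parent were exposed to 100 μM AsIII for 2 h and set against the same strain untreated, on 2 arrays per deletion strain and 4 for the parent, and each untreated deletion strain was also set against the untreated parent on 2 arrays. The labels do not say that the parent arrays came from separate cultures, so p-values measure only the spread between these samples, which may be technical. Each deletion strain gave 1 pair of arrays per comparison, so the spread between replicates of a deletion strain was not measured.

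Hsp70 proteins bind short hydrophobic stretches of unfolded proteins and release them in a cycle of ATP hydrolysis and nucleotide exchange. J proteins such as Ydj1 and Sis1 deliver substrates and start the hydrolysis, and Hsp110 proteins such as Sse1 and Sse2 speed nucleotide exchange. Ssa proteins act throughout the cytosol, whereas Ssb proteins sit at the ribosome and fold nascent chains. In yeast, the heat-shock factor Hsf1 drives many of these genes in stressed cells, and the SSB genes are known to be transcribed along with ribosomal protein genes.

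Each deleted gene was below 0 on both arrays of its untreated strain against the parent: YAP1 at -4.05 and -4.66, CAD1 at -3.94 and -5.57, RPN4 at -3.62 and -4.46, and ARR1 at -0.95 and -3.60, with deletion RNA in Cy5 and then in Cy3. Median ratios of single arrays lay between -0.06 and 0.07 on cDNA arrays and between -0.11 and 0.00 on Agilent arrays. Dye orientation moved some chaperone genes strongly. On Agilent arrays the 2 orientations of a replicate differed by a median of 0.28 over all genes, with the 90th percentile at 0.70, and 6 of the 10 chaperone genes lay above that percentile. The gap was largest for SSA3, with a median of 1.42, followed by SSB2 with 1.32, SSA1 and SSA2 with 1.30 each, SSB1 with 1.05 and SSA4 with 0.82. In SSA2, SSA3, SSB1, SSB2 and YDJ1 the ratio was lower with treated or deletion RNA in Cy5 in 10 of 10 replicates. On cDNA arrays 2 of the 10 genes, SSA1 and SSB1, lay above the 90th percentile of 0.99, with median gaps of 1.11 and 1.40. Replicate means average both orientations. The tests on them do not see the spread between dyes, so on Agilent arrays results that an array-level fit, in which arrays of one number formed a replicate block, did not keep are named as such.

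**Figure D1:**
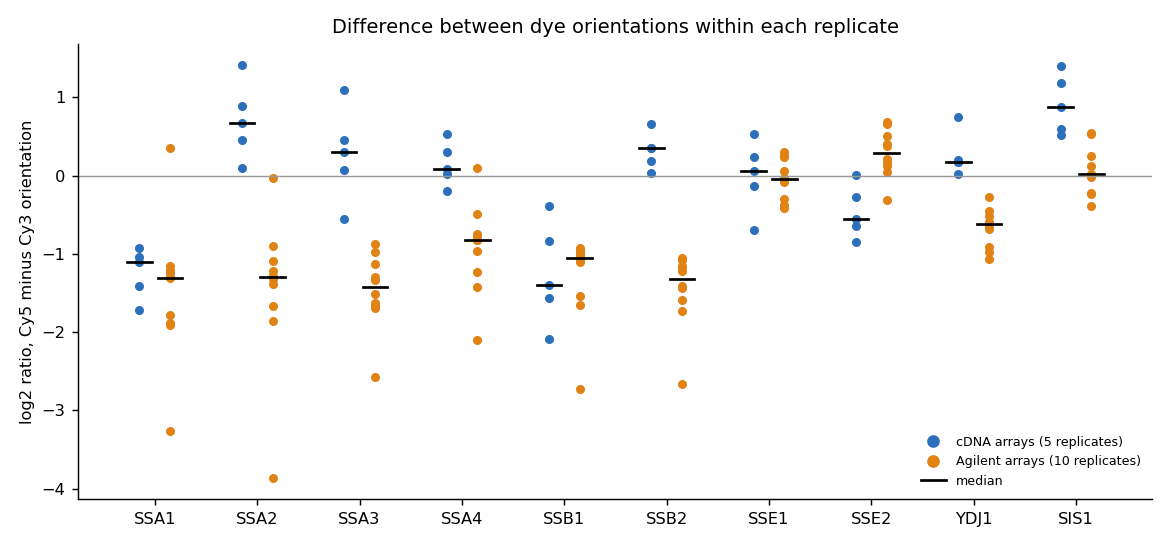
Difference between the 2 dye orientations of each replicate (log2 ratio with treated or deletion RNA in Cy5 minus that in Cy3), for the 10 chaperone genes on the x axis. Points are 5 cDNA culture pairs (blue) and 10 Agilent replicates (orange), bars are medians. The Agilent medians of SSA1, SSA2, SSA3, SSB1 and SSB2 lie below -1, and those of SSE1 and SIS1 lie near 0.

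At 1 mM AsIII for 30 min, the question was how the cytosolic chaperone genes respond to a short, high dose. Of the 10 genes 7 rose and 1 fell (limma on replicate means, Benjamini-Hochberg adjusted p under 0.05 over all genes, two-sided), where 9.69% of all genes rose and 7.09% fell. All 3 inducible genes and 4 of the 7 constitutive genes rose, with medians of 3.14 and 1.49, beside a median of 0.02 over all genes. On all 8 arrays the 7 genes lay above 0.

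SSA4, the most strongly heat-induced Ssa gene in yeast, ranged from 2.45 to 4.13 over 8 arrays with a median of 3.17. Its mean was 3.23 ± 0.37 (SE, n = 2 culture pairs), a 9.35-fold rise with an adjusted p of 0.00828. SSA3, its inducible relative, ranged from 2.46 to 4.22 with a median of 2.96 and averaged 3.14 ± 0.25, a rise of 8.84-fold (limma adjusted p = 0.00552). These were the highest means among the 10 genes. How far the cDNA spot of SSA3 bound RNA of other Ssa genes was not tested. SSA2, a constitutive Hsp70 gene, ranged from 1.27 to 3.96 and averaged 2.47 ± 0.35 (adjusted p = 0.014). The exchange factor gene SSE1 ranged from 1.70 to 3.58 and averaged 2.61 ± 0.37 (adjusted p = 0.0135), above its inducible paralogue SSE2, which ranged from 1.04 to 2.69 and averaged 1.70 ± 0.32 (adjusted p = 0.0254). For the J proteins, YDJ1 averaged 2.33 ± 0.28 and SIS1 averaged 1.49 ± 0.22, with adjusted p-values of 0.00891 and 0.0148 in limma.

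The size of these rises differed between the 2 culture pairs. In SSA4 the first pair averaged 3.95 and the second 2.50, and in SSE1 they averaged 3.32 and 1.90. For SSA2 the pairs averaged 3.14 and 1.79, for SSE2 2.27 and 1.14, and for YDJ1 2.77 and 1.88. In each of these 5 genes every array of the first pair lay above every array of the second.

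SSB2, a ribosome-associated Hsp70 gene, lay below 0 on all 8 arrays, from -2.47 to -0.80, and fell by 1.54 ± 0.25 (adjusted p = 0.0186). SSB1, which encodes a nearly identical protein, averaged 0.62 ± 0.21 and did not pass (adjusted p = 0.102). SSA1 averaged -0.18 ± 0.27 (adjusted p = 0.679), with 5 of its 8 arrays below 0. SSA1 and SSA2, and likewise SSB1 and SSB2, are close paralogues whose cDNA spots can bind each other's RNA, so their signals may not be separable. The spots nevertheless gave different ratios, and SSA1 and SSB1 were the spots with the large dye gap. Ribosomal protein genes, given beside SSB2, had a median of -0.95, with 41 of 133 falling and 1 rising.

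**Figure D2:**
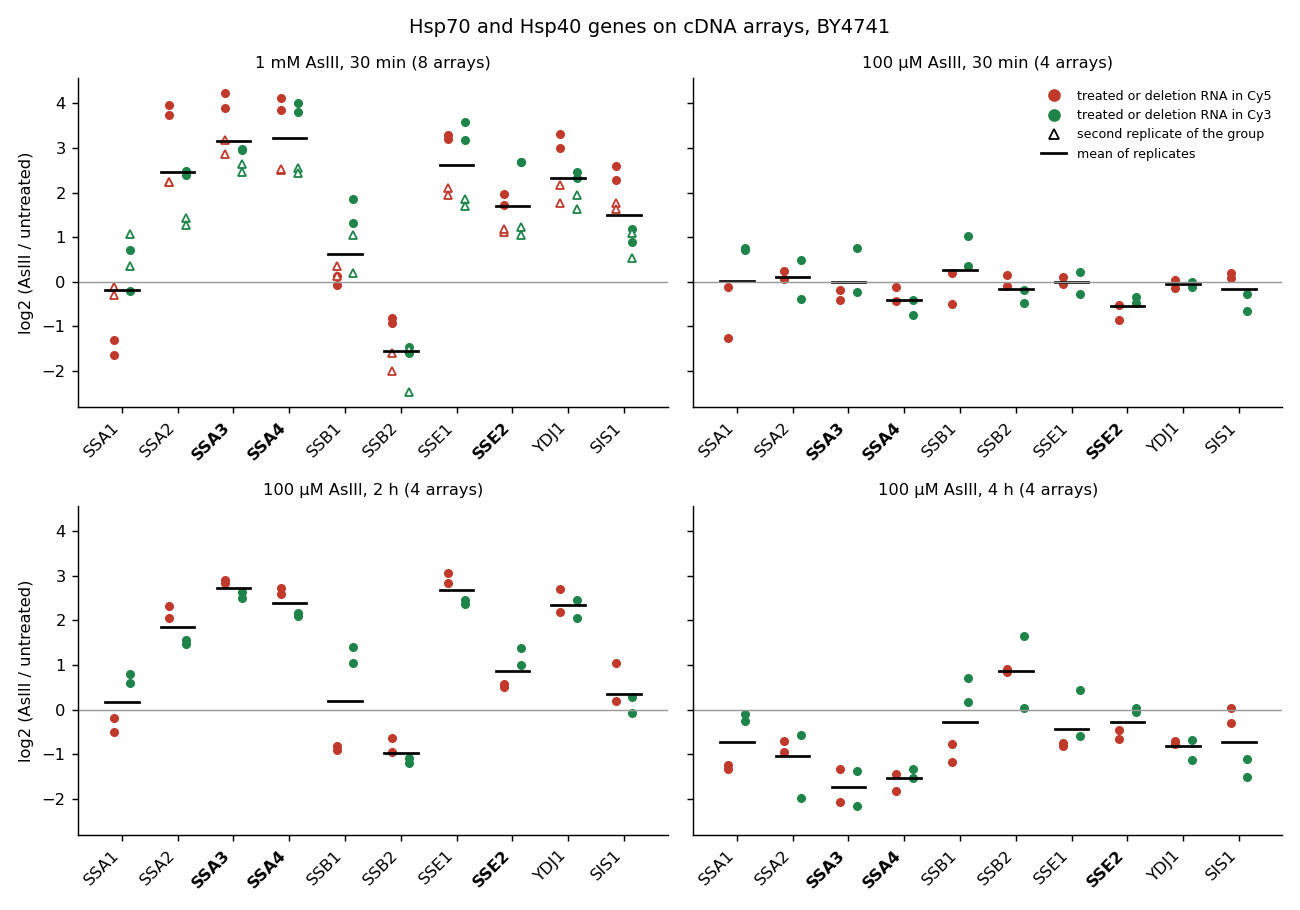
Log2 ratio of AsIII over untreated RNA (y axis) for the 10 chaperone genes (x axis, inducible genes in bold) on cDNA arrays at 1 mM for 30 min and at 100 μM for 30 min, 2 h and 4 h. Points are arrays by dye, triangles the second culture pair at 1 mM, and bars the mean of replicates. SSA3 and SSA4 reach about the same height at 1 mM (means 3.14 and 3.23), lie near 0 at 100 μM for 30 min, and lie below 0 at 4 h.

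The arrays at 100 μM addressed how the response develops at a lower dose. At 30 min none of the 10 genes passed the threshold in limma, where 0.0% of all genes passed, and 0 of them had an unadjusted p under 0.05, as 2.64% of all genes did. Their means ran from -0.54 in SSE2 to 0.27 in SSB1. At 2 h 2 of the 10 rose, SSA3 and YDJ1, and 0 fell, where 3.75% of all genes rose and 2.18% fell. SSA3 had 2.50, 2.63, 2.90 and 2.83 on its 4 arrays and averaged 2.71 ± 0.36, a 6.56-fold rise (adjusted p = 0.0282). On Agilent arrays SSA3 averaged -0.02 in the parent at this dose and time. How far its cDNA spot bound RNA of other Ssa genes was not tested. YDJ1 had 2.46, 2.04, 2.70 and 2.19 and averaged 2.35 ± 0.39 (adjusted p = 0.0391).

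Other genes were high at 2 h without passing. SSE1 had 2.37, 2.45, 2.84 and 3.05, with a mean of 2.68 and an adjusted p of 0.0504. SSA4 had 2.15, 2.09, 2.59 and 2.73, with a mean of 2.39 and an adjusted p of 0.061. SSA2 averaged 1.85 (adjusted p = 0.0917). All 3 lay above 0 on all 4 arrays, and SSA4 and SSE1 passed once each array was centred on its median, which brought the count to 4. With 1 culture pair at this time, each value was assumed to vary like the 2 pairs at 1 mM. SIS1, which rose at 1 mM, averaged 0.36, and SSB2 averaged -0.96 with all 4 arrays below 0 (adjusted p = 0.161). Ribosomal protein genes had a median of -1.76 at 2 h, with 32 of 133 falling.

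At 4 h the same genes lay on the other side of 0. None passed in limma, where 0.0542% of all genes did, and 2 of the 10 had an unadjusted p under 0.05, near the 13.2% of all genes that did. SSA3 had -1.37, -2.17, -2.06 and -1.34, with a mean of -1.74 (adjusted p = 0.2), and SSA4 had -1.53, -1.33, -1.82 and -1.45, with a mean of -1.53 (adjusted p = 0.326). SSA1, SSA2 and YDJ1 were also below 0 on all 4 arrays, with means of -0.73, -1.05 and -0.83. SSB2 was above 0 on all 4, from 0.04 to 1.65, with a mean of 0.86, while ribosomal protein genes had a median of 0.96. The contrast of 4 h minus 2 h was -4.45 ± 0.51 in SSA3 (adjusted p = 0.0617), -3.92 ± 0.74 in SSA4 (0.0795), -3.17 ± 0.55 in YDJ1 (0.0763), -3.11 ± 0.73 in SSE1 (0.106), -2.89 ± 0.71 in SSA2 (0.111) and 1.82 ± 0.50 in SSB2 (0.131).

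No gene on the array passed for that contrast, for 2 h minus 30 min, or for 1 mM minus 100 μM at 30 min (0.0% of all genes in each). An unadjusted p under 0.05 was found for 6 of the 10 chaperone genes in the first of these contrasts, where 22.0% of all genes had one, for 4 in the second (15.5%) and for 8 in the third (14.3%). The arrays of 2 h and 4 h did not overlap for SSA2, SSA3, SSA4, SSE1, SSE2, YDJ1 or SSB2. They came from 1 culture pair at each time, and the share of all genes without overlap was not counted. The lack of overlap is therefore not read as particular to these genes. The dose contrast at 30 min was 3.64 ± 0.64 in SSA4, 3.16 ± 0.44 in SSA3 and 2.38 ± 0.48 in YDJ1, each with an adjusted p of 0.145.

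**Figure D3:**
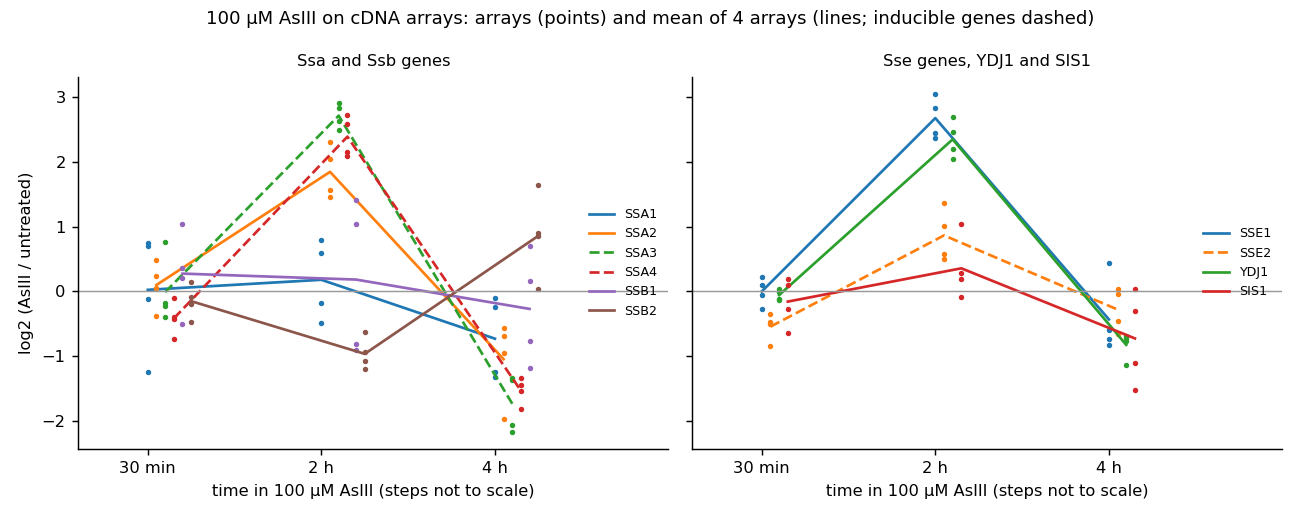
Log2 ratio of AsIII over untreated RNA (y axis) against time in 100 μM AsIII (x axis, steps not to scale) on cDNA arrays, with single arrays as points and the mean of 4 arrays as lines (inducible genes dashed). SSA3, SSA4, SSA2, SSE1 and YDJ1 run from near 0 at 30 min to means between 1.85 and 2.71 at 2 h and below 0 at 4 h, and SSB2 runs the opposite way.

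Combining the 3 culture pairs of the strong responses, both at 1 mM and the pair at 100 μM for 2 h, 6 of the 10 genes rose and 1 fell, where 9.35% of all genes rose and 4.66% fell. The 3 inducible genes averaged 3.00 ± 0.23 in SSA3, 2.95 ± 0.35 in SSA4 and 1.42 ± 0.31 in SSE2 (limma adjusted p = 0.00428, 0.00827 and 0.0395). SSA2, SSE1 and YDJ1 rose by 2.26 ± 0.32, 2.63 ± 0.30 and 2.33 ± 0.23 (SE, n = 3 culture pairs). SSB2 fell by 1.35 ± 0.24 (adjusted p = 0.0258). SIS1 averaged 1.12 ± 0.30 and did not pass (adjusted p = 0.0643). Without the pair at 2 h, 8 genes passed, SIS1 among them (adjusted p = 0.0148). SSB2 did not pass without the first or the second pair at 1 mM (adjusted p = 0.0697 and 0.101), and SSE2 did not without the first (0.0903).

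The Agilent arrays asked how deletion of 4 transcription factor genes, YAP1, CAD1, RPN4 and ARR1, changes the response to 100 μM AsIII at 2 h. Of the 10 chaperone genes 6 rose in yap1Δ (background 30.5% of all genes, with 36.0% falling), 9 in cad1Δ (31.9%, with 36.0% falling), 8 in rpn4Δ (24.4%, with 29.9% falling), 4 in arr1Δ (23.2%, with 26.9% falling) and 6 in the parent (34.7%, with 42.7% falling). None fell in any of the 5 strains on replicate means, while SIS1 fell in the parent in the array-level fit with the replicate block (-0.24, adjusted p = 0.0249). Of the rises, the array-level fit with the replicate block kept 6 in yap1Δ, 6 in cad1Δ, 6 in rpn4Δ, 3 in arr1Δ and 6 in the parent. That fit shifted the values of the deletion strains by an amount set by the gap between the 2 parent replicates. SSA1 in yap1Δ was 1.37 there and 1.14 on replicate means, so a kept call need not rest on the same value. The rises it did not keep were those of SSA1, SSA2 and SSB1 in cad1Δ, SSA1 and SSA2 in rpn4Δ, and SSA4 in arr1Δ. More than 1 in 2 of all genes passed in every strain. All genes shared 1 estimate of a small spread (SD 0.172) between the 2 parent replicates. With that same estimate, 2.59% of all genes were higher and 1.29% lower in untreated yap1Δ than in the untreated parent. Why so many genes passed after AsIII was not tested.

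SSE1 and YDJ1 rose in all 5 strains and on every array. SSE1 had 1.70 and 1.46 in yap1Δ, 1.80 and 1.74 in cad1Δ, 0.86 and 0.94 in rpn4Δ, 0.57 and 0.61 in arr1Δ, and 1.10, 1.47, 1.54 and 1.96 in the parent. Its means were 1.58 in yap1Δ, 1.77 in cad1Δ, 0.90 in rpn4Δ, 0.59 in arr1Δ and 1.52 in the parent, the arr1Δ and rpn4Δ arrays lying below all 4 parent arrays. The response in arr1Δ was lower than in the parent by 0.93 ± 0.21 (adjusted p = 4.3e-05), and the array-level fit with the replicate block gave -0.69 (adjusted p = 0.00245). In rpn4Δ the difference of -0.61 passed on replicate means (adjusted p = 0.0124) and not in that fit (adjusted p = 0.0724).

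YDJ1 had 1.74 and 2.19 in yap1Δ, 2.03 and 2.31 in cad1Δ, 1.62 and 2.30 in rpn4Δ, 0.38 and 0.99 in arr1Δ, and 0.99, 1.63, 1.17 and 1.76 in the parent. For each dye, the arrays of yap1Δ, cad1Δ and rpn4Δ lay above both parent arrays of that dye, and those of arr1Δ lay below both. The differences from the parent were 0.57 in yap1Δ, 0.78 in cad1Δ, 0.57 in rpn4Δ and -0.70 in arr1Δ (SE 0.21 each), with adjusted p-values of 0.0501, 0.00908, 0.0218 and 0.00223. In the fit with the replicate block all 4 passed, at 0.0171, 0.00902, 0.00852 and 0.00724. SIS1, whose parent mean was -0.24 (adjusted p = 0.0595, and 0.0249 with the replicate block), averaged 0.29 in yap1Δ, 0.41 in cad1Δ and 0.69 in rpn4Δ. The response of SIS1 was higher than in the parent by 0.66 in cad1Δ (adjusted p = 0.0455) and by 0.93 in rpn4Δ (adjusted p = 8.5e-05), and both held with the replicate block.

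SSA3 differed most between strains. With treated RNA in Cy5 and then in Cy3, it had -1.06 and 0.45 in yap1Δ, -0.39 and 0.94 in cad1Δ, 1.40 and 3.06 in rpn4Δ, 1.85 and 2.83 in arr1Δ, and -0.59, 0.28, -0.69 and 0.94 on parent arrays 1 to 4, of which 1 and 3 had treated RNA in Cy5. The rpn4Δ and arr1Δ arrays lay above all parent arrays, including those of the opposite dye. SSA3 rose 4.68-fold in rpn4Δ and 5.07-fold in arr1Δ, and averaged -0.02 ± 0.12 in the parent. The difference from the parent was 2.24 ± 0.21 in rpn4Δ (adjusted p = 1.6e-23) and 2.36 ± 0.21 in arr1Δ (adjusted p = 7.4e-27), and 2.38 and 2.50 in the fit with the replicate block (adjusted p = 3.7e-05 and 9.2e-06). In yap1Δ and cad1Δ the differences were -0.29 and 0.29 and did not pass (adjusted p = 0.428 and 0.649). On replicate means all strain differences share the 4 parent arrays, and with the replicate block they share parent arrays 1 and 2. Each deletion strain had 1 replicate, so the SE of 0.21 rests on the spread between the 2 parent replicates alone.

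SSA4 rose in all 5 strains on replicate means, by 1.40 in yap1Δ, 0.88 in cad1Δ, 1.74 in rpn4Δ, 0.42 in arr1Δ and 1.16 in the parent. The rise in arr1Δ did not pass with the replicate block (0.60, adjusted p = 0.111). On single arrays it had 0.01 and 0.83 in arr1Δ, against 0.57, 1.39, 0.97 and 1.71 in the parent. Both arr1Δ arrays lay below the parent arrays of their dye, and the difference of -0.74 passed on replicate means (adjusted p = 0.00123) and not with the replicate block (adjusted p = 0.18). In rpn4Δ the difference of 0.57 likewise passed only on replicate means (adjusted p = 0.0202, and 0.0925 with the block).

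SSA1 and SSA2 behaved alike on this platform, where both had 2 probes. SSA2 had 0.79 and 1.88 in yap1Δ, 0.92 and 0.95 in cad1Δ, 0.19 and 1.51 in rpn4Δ, -0.98 and 0.69 in arr1Δ, and 0.10, 1.49, 0.45 and 1.36 in the parent. SSA1 had -1.14 and 0.75 in arr1Δ, against -0.10, 1.06, 0.28 and 1.59 in the parent. Differences of -1.00 in SSA2 and -0.90 in SSA1 between arr1Δ and the parent passed on replicate means (adjusted p = 9.3e-06 and 7.0e-05) and not with the replicate block (0.163 and 0.288). SSE2 averaged 0.89 in yap1Δ, 0.41 in cad1Δ, 0.41 in rpn4Δ, 0.10 in arr1Δ and 0.45 in the parent, and passed in all but arr1Δ. No strain difference of SSE2 passed on replicate means, where that of yap1Δ was 0.44 (adjusted p = 0.176). With the replicate block a difference of 0.59 in yap1Δ passed (adjusted p = 0.0197), set against parent arrays 1 and 2 alone. SSE2 averaged 0.30 on those arrays and 0.61 in parent replicate 2.

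The SSB genes moved little. SSB1 averaged 0.06 in yap1Δ, 0.44 in cad1Δ, -0.21 in rpn4Δ, -0.38 in arr1Δ and 0.10 in the parent, and SSB2 averaged 0.13 in yap1Δ, 0.58 in cad1Δ, -0.31 in rpn4Δ, -0.36 in arr1Δ and 0.09 in the parent. With treated RNA in Cy5 SSB1 was below 0 in all 5 strains and SSB2 in all but cad1Δ, and with treated RNA in Cy3 both were above 0 in all 5. They rose in cad1Δ on replicate means (adjusted p = 0.0169 and 0.00133), SSB2 also with the replicate block. The difference of SSB1 in arr1Δ, -0.48, passed only on replicate means (adjusted p = 0.0415, and 0.191 with the block). Medians of 135 ribosomal protein genes were 0.56 in yap1Δ, 0.77 in cad1Δ, -0.11 in rpn4Δ, -0.60 in arr1Δ and 0.49 in the parent.

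Read over the 10 genes, 0 strain differences in yap1Δ passed on replicate means. With the replicate block 3 passed, SSE2, YDJ1 and SIS1, all higher than on parent arrays 1 and 2. In cad1Δ 2 passed, both higher. In rpn4Δ 4 were higher and 1 lower, and in arr1Δ 1 was higher and 6 lower. Over all genes the response was higher than in the parent for 5.39% and lower for 7.36% in yap1Δ, 1.75% and 2.48% in cad1Δ, 21.3% and 17.7% in rpn4Δ, and 28.6% and 25.5% in arr1Δ.

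**Figure D4:**
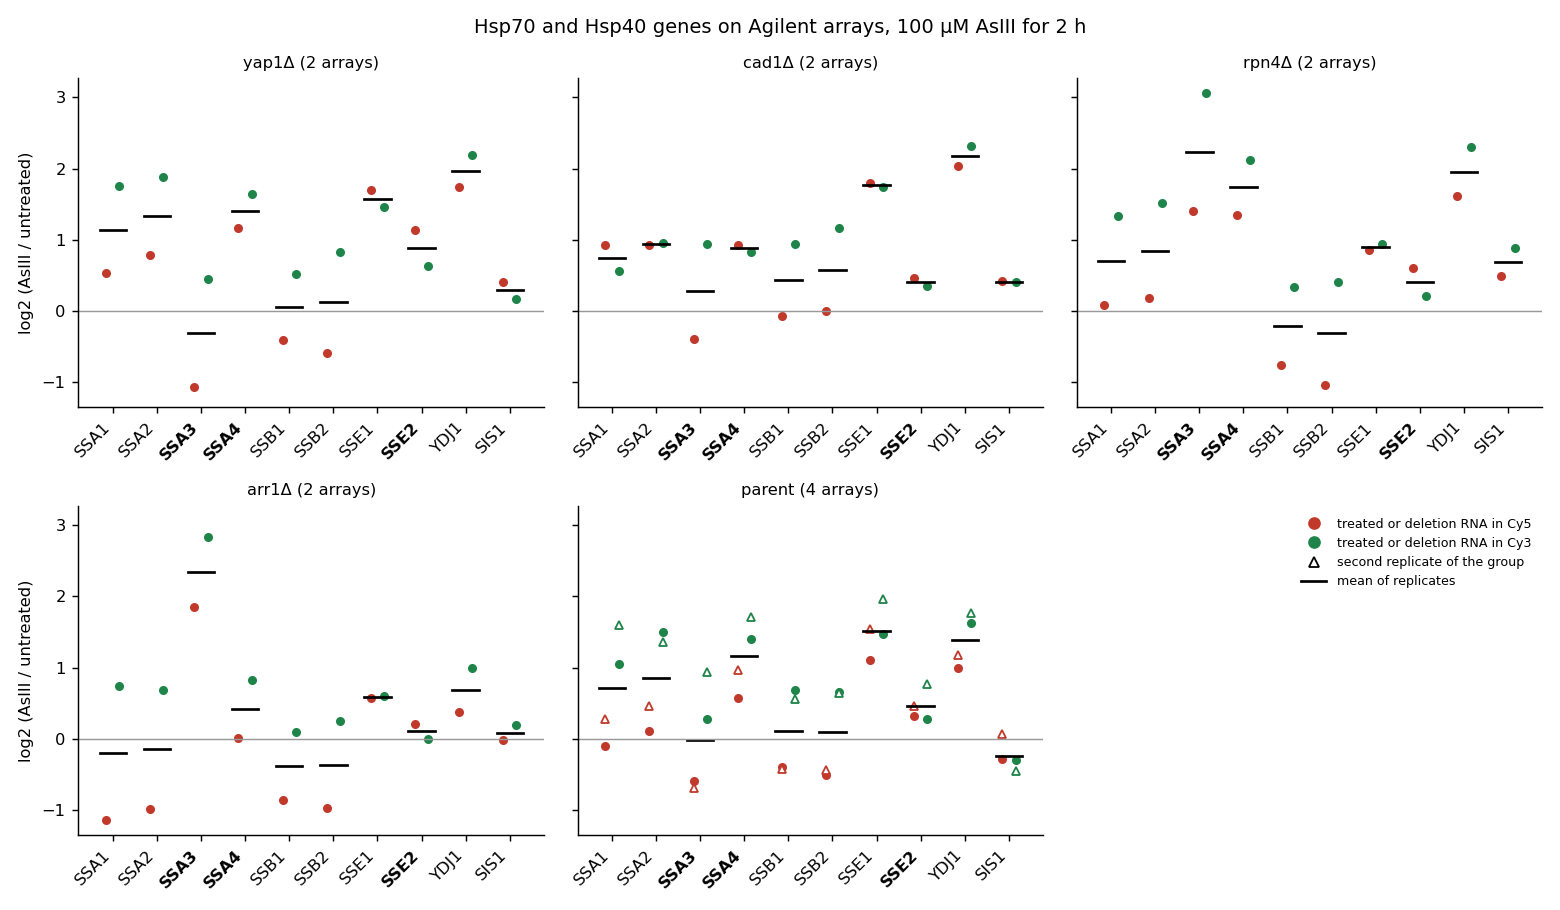
Log2 ratio of AsIII (100 μM, 2 h) over untreated RNA (y axis) for the 10 chaperone genes (x axis, inducible genes in bold) on Agilent arrays in yap1Δ, cad1Δ, rpn4Δ, arr1Δ and the parent. Points are arrays by dye, triangles the second parent replicate, and bars the mean of replicates. SSA3 stands at 2.23 in rpn4Δ and 2.34 in arr1Δ, against -0.02 in the parent, and the bars of all genes other than SSA3 and SIS1 are lower in arr1Δ than in the parent.

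Levels before AsIII were compared between each untreated deletion strain and the untreated parent. With the replicate block these levels were shifted by an amount set by the gap between the 2 parent replicates of the AsIII response. In arr1Δ, SSA3 was thereby -1.25 with the block and -1.39 on replicate means, and SSE1 was 0.18 and -0.05. Adjusted p-values with the block below belong to such shifted values. In yap1Δ and cad1Δ none of the 10 genes passed in limma, where 2.59% and 1.71% of all genes were higher and 1.29% and 0.965% lower than in the parent. An unadjusted p under 0.05 was found for 5 of the 10 in yap1Δ, where 11.7% of all genes had one, and for 3 in cad1Δ (7.79%). With deletion RNA in Cy5 and then in Cy3, SSA2 in yap1Δ had -2.30 and 1.57, and SSB1 had -0.90 and 1.82. Single arrays thus gave opposite directions there.

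In rpn4Δ 2 of the 10 were higher and 5 lower, where 10.9% of all genes were higher and 11.0% lower. SSB1 had 0.41 and 1.95 and SSB2 had 0.49 and 2.08, with means of 1.18 and 1.28 (adjusted p = 2.1e-10 and 4.0e-12), and both were higher also with the replicate block (adjusted p = 0.00995 and 0.00165). In arr1Δ 2 of the 10 were higher and 2 lower, where 11.8% of all genes were higher and 11.5% lower. SSB1 had 0.11 and 1.10 and SSB2 had 0.19 and 1.25 in arr1Δ, with means of 0.61 and 0.72, of which SSB2 kept its call with the replicate block (adjusted p = 0.0414) and SSB1 did not (0.165). Ribosomal protein genes were higher as well, with medians of 1.27 in rpn4Δ and 1.11 in arr1Δ, and 132 and 133 of 135 passing. Their medians on the 2 arrays were 1.27 and 1.28 in rpn4Δ, and 1.16 and 1.08 in arr1Δ, so these medians did not show the dye gap of the SSB genes. Dye gaps of single ribosomal protein genes can cancel in a median and were not examined.

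SSA3 was lower in both of these strains. It had -1.40 and -0.27 in rpn4Δ, with a mean of -0.84 (adjusted p = 1.7e-05, and 0.0583 with the replicate block). It had -2.24 and -0.54 in arr1Δ, with a mean of -1.39 (adjusted p = 7.2e-14, and 0.0028 with the block). YDJ1 was lower in rpn4Δ, at -1.27 and -0.35 with a mean of -0.81 (adjusted p = 3.7e-05, and 0.00304 with the block). SSA2, SSA4 and SIS1 in rpn4Δ, at -0.45, -0.54 and -0.49, and SSA1 in arr1Δ, at -0.68, passed on replicate means only.

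**Figure D5:**
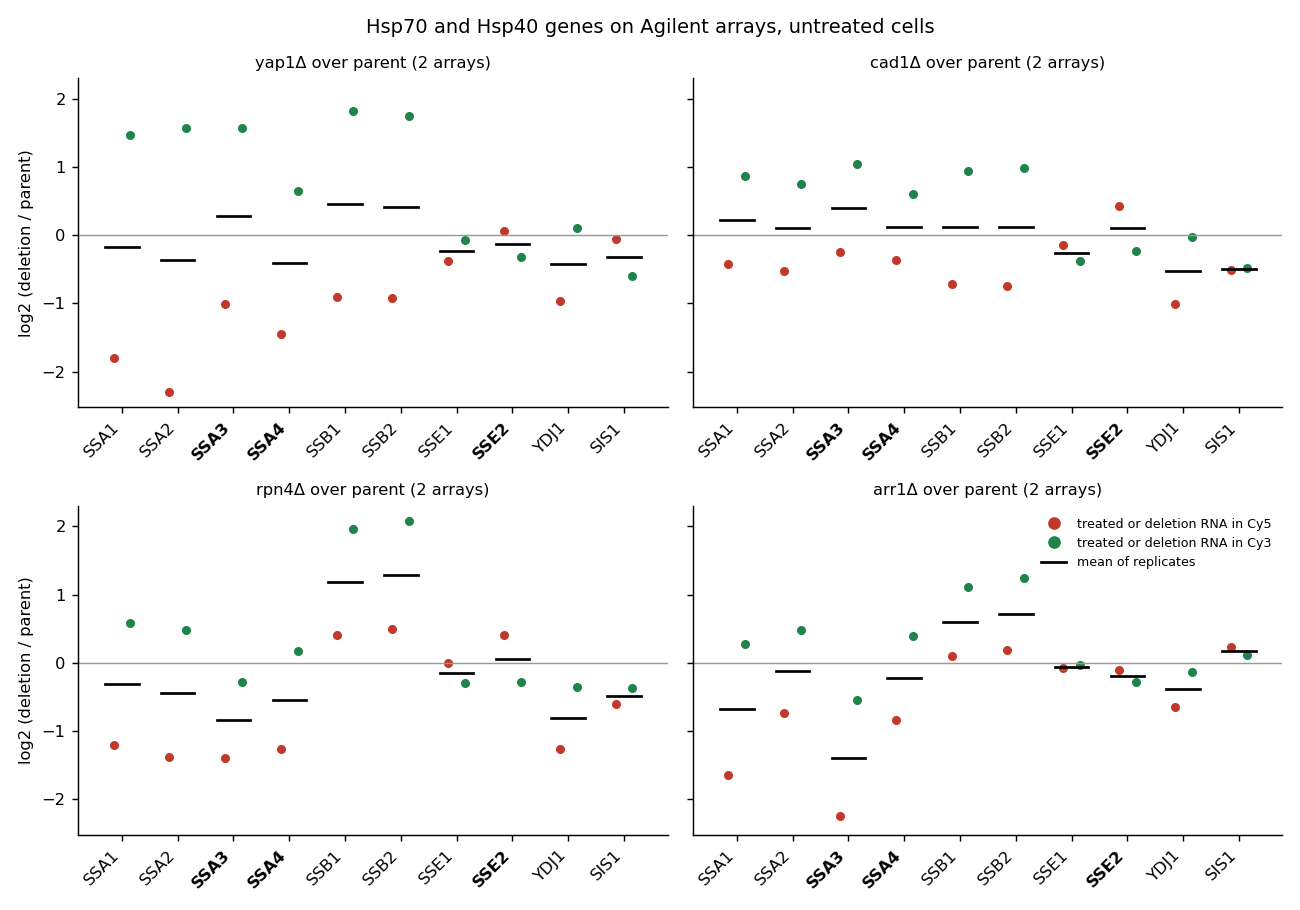
Log2 ratio of untreated deletion strain over untreated parent (y axis) for the 10 chaperone genes (x axis, inducible genes in bold) on Agilent arrays. Points are the 2 arrays by dye and bars their mean. SSB1 and SSB2 are above 0 on both arrays in rpn4Δ and arr1Δ, SSA3 is below 0 on both, and in yap1Δ the 2 dyes of SSA1, SSA2, SSA3, SSA4, SSB1 and SSB2 lie on opposite sides of 0.

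The response and the starting level of SSA3 thus moved in opposite directions in rpn4Δ and arr1Δ. The untreated deletion strain enters both ratios with opposite signs. If both sets of arrays used the same untreated RNA, a deviation in it alone would move them apart, which was not tested. The same holds for the other genes of this paragraph. Adding both log2 ratios gives treated deletion cells over untreated parent cells, a sum over 2 sets of arrays that was not tested. For SSA3 it was 1.39 in rpn4Δ and 0.95 in arr1Δ, against -0.02 for treated over untreated parent cells. For YDJ1 in rpn4Δ the sum was 1.15, against 1.39 in the parent, although its response in rpn4Δ was the larger. For SSB1 and SSB2 in rpn4Δ it was 0.97 each, against 0.10 and 0.09 in the parent. In arr1Δ it was 0.19 for SSA4, against 1.16 in the parent, and 0.54 for SSE1, against 1.52 in the parent.

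Paralogues were compared within each replicate of an AsIII response, over 6 pairs of genes on each platform, with an exact sign-flip permutation test (two-sided) and adjustment over the 6 pairs. On cDNA arrays the 5 replicates cannot give a p below 0.0625, and no adjusted p was below 0.375. SSA4 minus SSA2 averaged 0.21 ± 0.66 (SD, n = 5), and was above 0 in the 3 replicates at 1 mM and at 2 h, at 0.80, 0.71 and 0.54, and below 0 at 30 min and 4 h of 100 μM, at -0.52 and -0.49. SSA3 minus SSA2 averaged 0.28 ± 0.70 (SD, n = 5) and had the same signs. SSE2 minus SSE1 averaged -0.80 ± 0.72 (SD, n = 5) and was below 0 in 4 of 5 replicates.

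On Agilent arrays 6 replicates allow a p of 0.0312 at the least. SSE2 minus SSE1 was below 0 in 6 of 6 replicates, between -1.36 and -0.49, and averaged -0.86 ± 0.36 (SD, exact permutation p = 0.0312, adjusted p = 0.0938). SSA4 minus SSA1 was above 0 in 6 of 6, between 0.14 and 1.03, and averaged 0.49 ± 0.31 with the same p. SSA4 minus SSA2 averaged 0.35 ± 0.35 and was above 0 in 5 of 6. None of these passed after adjustment. SSA3 minus SSA2 was 1.38 in rpn4Δ and 2.49 in arr1Δ, and between -1.64 and -0.66 in yap1Δ, cad1Δ and both parent replicates.

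SSA1 minus SSA2 averaged -0.14 ± 0.12 and SSB1 minus SSB2 averaged -0.02 ± 0.09 on Agilent arrays (SD, n = 6), against -1.34 ± 1.61 and 0.96 ± 1.38 on cDNA arrays (SD, n = 5). The close paralogues were thus near each other on Agilent arrays and apart on cDNA arrays. Probes of both platforms can bind RNA of the other paralogue, and how far each did was not tested. Whether the cDNA spots of SSA1 and SSB1 hold the named genes could not be checked.

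The cDNA culture pair at 2 h and the Agilent parent had the same dose, time and strain background. RNA preparation, labelling and normalization differed. By the methods, cDNA arrays took poly(A) RNA selected after acid-phenol extraction, and Agilent arrays took total RNA from an RNeasy protocol. Values are therefore given side by side without a test, and the sources of their differences were not tested. On cDNA arrays SSA3 averaged 2.71 and on Agilent arrays -0.02. How far the cDNA spot of SSA3 bound RNA of other Ssa genes was not tested, so its cDNA values may not be its own alone. SSA4 averaged 2.39 on cDNA and 1.16 on Agilent arrays, SSE1 2.68 and 1.52, YDJ1 2.35 and 1.39, and SSA2 1.85 and 0.85. SSB2 averaged -0.96 on cDNA and 0.09 on Agilent arrays, and ribosomal protein genes had medians of -1.76 and 0.49.

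Of 16 other cytosolic co-chaperone genes, 3 rose and 1 fell at 1 mM, where 9.69% of all genes rose and 7.09% fell, with a median of 0.33 beside 0.02 over all genes. STI1, which links Hsp70 to Hsp90, rose by 2.18 at 1 mM and by 2.87 at 100 μM for 2 h, and FES1, an Hsp70 exchange factor, and the J protein gene APJ1 rose by 2.14 and 1.24 at 1 mM. The J protein gene XDJ1 fell by 1.36 there. The ribosome-bound partners of Ssb, ZUO1 and SSZ1, averaged 0.68 and 0.31 and did not pass. On Agilent arrays 6 of the 16 rose in yap1Δ, 8 in cad1Δ, 6 in rpn4Δ, 3 in arr1Δ and 6 in the parent, and 4 fell in yap1Δ, 5 in cad1Δ, 5 in rpn4Δ, 4 in arr1Δ and 5 in the parent. Over all genes 30.5%, 31.9%, 24.4%, 23.2% and 34.7% rose in these strains, in the same order, and 36.0%, 36.0%, 29.9%, 26.9% and 42.7% fell, so the 6 rises and 5 falls among 16 in the parent were close to or below the share of all genes. APJ1 rose by 2.22 in yap1Δ, 1.96 in cad1Δ, 1.37 in rpn4Δ, 0.85 in arr1Δ and 1.66 in the parent. JJJ1, a J protein gene of ribosome assembly, fell in all 5 strains, by 1.03 in the parent, where all 4 arrays lay below 0. On cDNA arrays at the same dose and time JJJ1 went the other way, averaging 1.36 with all 4 arrays above 0 and no pass (adjusted p = 0.0572). The calls of APJ1 and JJJ1 in the 5 strains held with the replicate block.

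Over the 15 replicates of both platforms, the genes whose ratios had the highest Pearson correlation with SSA4, among 5513 genes on both, were SSA2 (r = 0.98), HSP104 (0.97), CPR6 (0.97), YIL174W (0.96) and TMA23 (0.96). Among the chaperone genes SSE1 (0.93), SSE2 (0.93) and YDJ1 (0.91) followed, SSB2 had -0.80 and SSA1 had 0.31. For SSB1 the most alike genes were SWT1 (0.80), SPI1 (0.78), OGG1 (0.78), FKS1 (0.77) and ERB1 (0.76), and its paralogue SSB2 had 0.12. This r pools platforms that differed for the pair. SSB1 minus SSB2 lay between -0.14 and 0.10 in the 6 Agilent AsIII replicates and averaged 0.96 on cDNA arrays. These values describe the replicates, which share platforms and control samples.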

How the data were processed

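Transcript ratios were taken as deposited. The deposited cDNA values are log2 ratios, positive where AsIII-treated RNA was the more abundant. The deposited Agilent values are log10 ratios made by the authors with Feature Extraction and Rosetta Resolver and bounded at 100-fold, and were converted to log2. The sign of both is the same in either dye orientation. Intensities were not used here, and the normalization of the cDNA ratios is not given in the sources used here. Probes were named by the gene symbol of the platform annotation, and probes of a gene were averaged. Spots without a gene (1143 of 6720 and 1605 of 10807) were left out.

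Arrays were averaged to 5 cDNA culture pairs in 4 conditions and 10 Agilent dye-swap pairs in 9. Parent arrays 1 with 2 and 3 with 4 were taken as pairs. limma 3.58.1 in R 4.3.3 (lmFit, eBayes) was fitted per platform over all genes, with 1 residual degree of freedom each and 2 in the combined fit, and was tested on simulated data. The number of arrays limits the precision. Python 3.11.15 with pandas 2.3.3 and numpy 2.4.6 did the paralogue tests.

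Array numbers follow dye orientation. On Agilent arrays, deviations from the group mean of same-numbered arrays correlated at 0.62 to 0.96 over 72 pairs of arrays, so the array number was used as a replicate block there. Numbers 3 and 4 occur in the parent only.

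The 10 genes and the gene lists were chosen with earlier results of these data known. Named genes are these 10, the listed co-chaperones, organelle chaperones and regulators, and the 5 genes most alike in pattern to SSA4 and to SSB1. Alternatives were median centring, arrays as replicates, either dye, other variance settings, probe medians, a stricter threshold, another parent pairing and leaving out replicates. Sequences of promoters and proteins were not analysed here.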

Additional observations from a re-analysis of the deposited data

Results flagged for a closer look

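One sample stood apart from its group: YDJ1 at 100 μM for 4 h had -1.13 on its lowest array, against -0.69, -0.76 and -0.71 on the other 3. Of 50 groups of arrays tested for such a gap this was the 1 that passed, and chance flags about 1 in 20.

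The AsIII response of a chaperone gene differed from that of the parent in 14 contrasts on Agilent replicate means (limma, adjusted p under 0.05). In cad1Δ these were SIS1 at 0.66 and YDJ1 at 0.78. In rpn4Δ they were SIS1 at 0.93, SSA3 at 2.24, SSA4 at 0.57, SSE1 at -0.61 and YDJ1 at 0.57. In arr1Δ they were SSA1 at -0.90, SSA2 at -1.00, SSA3 at 2.36, SSA4 at -0.74, SSB1 at -0.48, SSE1 at -0.93 and YDJ1 at -0.70. They share the parent arrays. With the replicate block, which set each strain against parent arrays 1 and 2 alone, 2 of 2 remained in cad1Δ. In rpn4Δ 3 of 5 remained (SSA3, YDJ1 and SIS1) and in arr1Δ 3 of 7 (SSA3, SSE1 and YDJ1).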

How the results depend on the processing

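Of 75 values of the 10 genes past the threshold, 75 were kept with robust eBayes and with medians of probes, 73 with median centring and with trended eBayes, 57 with the array-number replicate block, 57 with Cy5 alone, 56 with Cy3 alone (treated or deletion RNA in that dye), 40 with each array as a replicate and 32 under the stricter rule (unadjusted p under 0.001 and at least a 2-fold change). Medians equal means where a gene has 1 or 2 probes. The SSA3 differences from the parent in rpn4Δ and arr1Δ kept their direction in all these alternatives and passed in each test but 1, that of rpn4Δ with each array as a replicate (adjusted p = 0.0525).

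Counts of the 10 genes past the threshold changed as follows. With each array as a replicate, the count was 7 at 100 μM for 2 h (2 on replicate means), 5 at 4 h (0), 6 for 2 h minus 30 min (0), 8 for 4 h minus 2 h (0) and 8 for 1 mM minus 100 μM (0), and on Agilent arrays 3 for AsIII in cad1Δ (9), 5 in rpn4Δ (8) and 2 in arr1Δ (4), 1 in untreated rpn4Δ (7) and 0 in untreated arr1Δ (4), and for differences from the parent 0 in cad1Δ (2), 2 in rpn4Δ (5) and 2 in arr1Δ (7). On cDNA arrays that fit counts arrays of 1 culture pair as replicates. Adding the replicate block gave 9 at 1 mM (8), 9 in the combined response (7), 7 for AsIII in the parent (6, the added one a fall of SIS1), 6 in cad1Δ (9), 6 in rpn4Δ (8) and 3 in arr1Δ (4), 7 at 2 h, 7 at 4 h, 7 for 2 h minus 30 min, 9 for 4 h minus 2 h, 8 for 1 mM minus 100 μM, 3 in untreated rpn4Δ, 2 in untreated arr1Δ, and differences of 3 in yap1Δ (0), 3 in rpn4Δ and 3 in arr1Δ. On cDNA arrays same-numbered arrays share only a number and a dye (correlations of their deviations from -0.14 to 0.71 over 40 pairs of arrays).

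Median centring gave 4 at 2 h, 1 for 4 h minus 2 h and 1 for the difference in cad1Δ. Cy5 alone gave 4 at 2 h, 7 in untreated yap1Δ (0), 3 in untreated cad1Δ (0), and differences of 1 in yap1Δ and 0 in cad1Δ. Cy3 alone gave 10 for AsIII in the parent (6), 5 in untreated yap1Δ, 2 in untreated rpn4Δ, 2 in untreated arr1Δ, and differences of 0 in cad1Δ and 2 in rpn4Δ. Trended eBayes gave 1 at 2 h, 1 in untreated yap1Δ, 1 in untreated cad1Δ and 2 for the difference in yap1Δ, and robust eBayes gave 1, 2 and 2 for the last 3 of these. Parent arrays paired as 1 with 4 and 3 with 2 gave 1 in untreated yap1Δ, 1 in untreated cad1Δ, and differences of 3 in yap1Δ and 1 in cad1Δ. The stricter rule gave 1 at 2 h, 1 for 4 h minus 2 h, 1 for 1 mM minus 100 μM, for AsIII 2 in cad1Δ, 3 in rpn4Δ, 1 in arr1Δ and 3 in the parent, 2 in untreated rpn4Δ, 1 in untreated arr1Δ, and differences of 0 in cad1Δ, 1 in rpn4Δ and 2 in arr1Δ. Leaving out a culture pair gave 5 to 8 in the combined response (7). Leaving out a replicate left no residual degrees of freedom in the other fits, which then give values only.

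Single dyes turned 19 values, each of a call on one side. With Cy5 alone, for AsIII, SSB1 had -0.40 in yap1Δ, -0.068 in cad1Δ and -0.41 in the parent, SSB2 -0.58 in yap1Δ and -0.47 in the parent, and SSA3 -0.39 in cad1Δ. In untreated cells SSB1, SSB2 and SSA3 had -0.90, -0.92 and -1.00 in yap1Δ, and SSB1 and SSB2 had -0.72 and -0.74 in cad1Δ. With Cy3 alone, for AsIII, SSA1 had 0.75 and SSA2 had 0.69 in arr1Δ, and SSA3 had 0.61 in the parent. In untreated cells SSA1 and SSA2 had 1.46 and 1.57 in yap1Δ, SSA2 and SSA4 had 0.48 and 0.17 in rpn4Δ, and SSA1 had 0.27 in arr1Δ. SSB1 minus SSB2 on Agilent arrays was 0.10 with Cy5 alone. SSA3 minus SSA2 there ran from -0.53 to 0.29 on leaving out a replicate. The causes were not tested. Depth is unknown, as the values are ratios without intensities.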

Other observations

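Chaperones of the organelles gave a comparison with the cytosolic genes. Of 9 genes for Hsp70 and J proteins of the mitochondria and the endoplasmic reticulum, 2 rose at 1 mM AsIII and 0 fell, where 9.69% of all genes rose and 7.09% fell, with a median of 0.48. SSC1, the main Hsp70 of the mitochondrial matrix, rose by 1.28, and its J protein partner MDJ1 rose by 2.44. KAR2, the Hsp70 of the endoplasmic reticulum, averaged 1.34 and did not pass. On Agilent arrays 7 of the 9 rose in yap1Δ, 6 in cad1Δ, 5 in rpn4Δ, 3 in arr1Δ and 7 in the parent. In the same order of strains, 1, 1, 0, 1 and 0 fell. Over all genes 30.5%, 31.9%, 24.4%, 23.2% and 34.7% rose, and 36.0%, 36.0%, 29.9%, 26.9% and 42.7% fell. On Agilent arrays MDJ1 rose by 2.28 in yap1Δ, 2.20 in cad1Δ, 1.65 in rpn4Δ, 0.82 in arr1Δ and 1.77 in the parent, and its response in arr1Δ was lower than in the parent by 0.95. SSC1 rose by 0.57 in arr1Δ, against 0.52 in the parent. SEC63, a J protein gene of protein import into the endoplasmic reticulum, fell by 0.66 in arr1Δ, against a rise of 1.05 in the parent, and averaged -0.66 at the same dose and time on cDNA arrays without passing.

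Among the regulators of these genes, HSF1 averaged -0.12 at 1 mM and did not pass, and on Agilent arrays it averaged -0.08 in arr1Δ, against -0.45 in the parent. Before AsIII, 3 of the 4 regulators were lower in arr1Δ than in the parent on replicate means, where 11.5% of all genes were lower. HSF1 stood at -0.85 and SKN7 at -0.65. MSN2, a general stress factor gene, rose by 0.89 at 1 mM, and its relative MSN4 averaged -1.19 there and did not pass.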
